A study of Mus musculus with 18 samples.

Results

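The 6 genes Mbp, Pmp22, Prx, Mag, Cnp and Egr2 belong to the myelin program of Schwann cells, the glia that sheathe peripheral axons. They were followed through RNA sequencing of mouse dorsal root ganglion (DRG) cultures. They were chosen by symbol, as 6 of the 17198 genes in the deposited table, and all 6 passed the filter on low values. DRG are the clusters of sensory neurons beside the spinal cord. The cultures came from wild-type mice (WT) or from mice with 1 tm1a allele of Dynlrb1 and 1 wild-type allele (HET), Dynlrb1 being a light chain of the dynein motor. A tm1a allele is a knockout-first targeted insertion, carried by all cells of such a mouse, so glia and neurons in a HET culture share it. Cultures were collected at 12, 24 and 48 h, with 3 biological repeats for each genotype and time, 18 in all. The labels give no age, sex or pooling of the mice, and no treatment.

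Schwann cells wrap axons of peripheral nerve, and their membrane is compacted by a small set of abundant proteins. Egr2 (also called Krox20) is the transcription factor that switches on this myelin program, acting with Sox10. When Schwann cells lose contact with axons, as in an injured nerve or a dissociated ganglion, they are known to lower myelin genes and to raise a set of injury genes led by Jun. Myelin basic protein, encoded by Mbp, holds the cytoplasmic faces of the membrane together, and Pmp22 is a tetraspan membrane protein of compact myelin. Periaxin, from Prx, links the outer Schwann cell membrane to its surroundings. Mag is an adhesion molecule of the membrane facing the axon, and Cnp is an enzyme of the non-compacted cytoplasm of myelin-forming cells. Pmp22 is also made outside myelin, among others in fibroblasts, and Egr2 is also an activity-regulated gene of other cells, so neither is proof of a Schwann cell.

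On the GRCm38 (mm10) assembly, with the GENCODE annotation, all 6 are protein-coding genes. Mbp lies on chromosome 18 from 82475146 to 82585637 on the plus strand, Pmp22 on chromosome 11 from 63128982 to 63159547 on the plus strand, and Cnp on chromosome 11 from 100574904 to 100591729 on the plus strand. Prx lies on chromosome 7 from 27499324 to 27520214 on the plus strand, Mag on chromosome 7 from 30899176 to 30914873 on the minus strand, and Egr2 on chromosome 10 from 67535475 to 67542188 on the plus strand.

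Dynlrb1 itself was reduced: no HET culture reached the lowest WT culture, with a log2 fold change averaged over the times of -0.83 (SE 0.071, adjusted p = 2.85e-05 in limma). At single times limma called it at 24 h (adjusted p = 0.039), but not at 12 h (0.0655) or 48 h (0.0501). The authors' deposited table called it at each time, so a missing limma call at a single time does not show that a gene is unchanged. The authors' normalized counts add up to nearly the same total in every culture, from 41509705 to 41509874, so sequencing depth is unknown and precision rests on the spread between cultures. Markers of sensory neurons outweighed those of other cells: the summed FPKM (fragments per unit of transcript length and of sequencing depth) of 8 neuronal markers ran from 4421.6 to 6215 per culture, that of 6 Schwann lineage markers from 226.1 to 374.3, and that of 6 satellite glia markers from 210.5 to 642. Of 8 oligodendrocyte markers 6 were in the table, with sums of 0.396 to 1.12. Culture 3 of HET at 48 h lay furthest from its replicates, at a root mean square log2 distance of 0.58, against 0.367 to 0.547 in the other cultures.

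Levels can be compared between genes per length, in FPKM. Pmp22 stood far above the rest, at a mean of 329 over the 18 cultures and a range of 259.8 to 382.9, higher than 99.4% of all genes. Cnp followed at 13.1 (9.82 to 17.7), Mbp at 9.67 (6.22 to 12.7) and Egr2 at 7.79 (4.62 to 11.6), and these ranges overlapped from each neighbour to the next. Prx was lower at 1.8 (1.23 to 2.23), and Mag was lowest at 0.207 (0.0123 to 0.381). No culture of Pmp22 overlapped Cnp, none of Egr2 overlapped Prx, and none of Prx overlapped Mag. Mag lay above only 11.1% of all genes in the same cultures in which Pmp22 lay near the top.

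**Figure D1:**
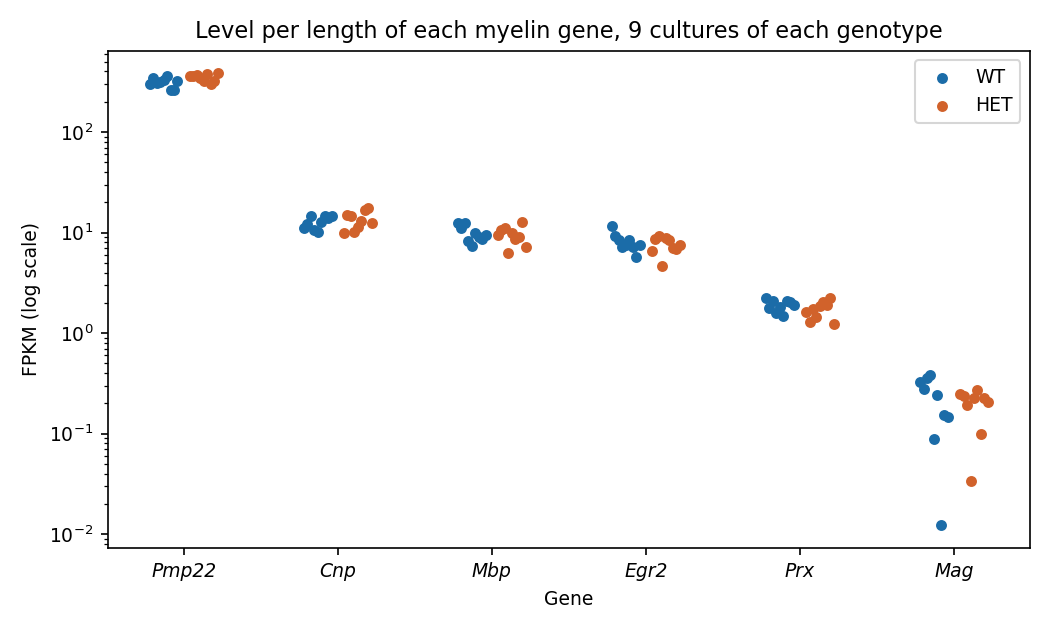
FPKM of each myelin gene on a log axis, with 1 point per culture, 9 WT and 9 HET. Pmp22 sits at 259.8 to 382.9 FPKM and Mag at 0.0123 to 0.381, and WT and HET points overlap in each gene.

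Mbp was highest at 12 h in WT. In WT its normalized counts were 2493, 2232 and 2498 at 12 h, 1656, 1483 and 1968 at 24 h, and 1820.1, 1720.4 and 1903 at 48 h. In HET they were 1899, 2144 and 2243 at 12 h, 1245, 1985 and 1744 at 24 h, and 1808, 2549.7 and 1448 at 48 h. The 3 WT cultures at 12 h lay above all WT cultures of the later times, while the HET cultures of the 3 times overlapped.

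Pmp22 differed little in any direction. In WT its normalized counts were 22479.7, 25604 and 22877 at 12 h, 23524, 24302 and 26662 at 24 h, and 19735, 19425 and 23859 at 48 h. In HET they were 27197, 27139.9 and 27403 at 12 h, 25781, 23957 and 28242 at 24 h, and 22255, 24104 and 28628 at 48 h. The 3 HET cultures at 12 h lay above all 3 WT cultures of that time, and the genotypes overlapped at 24 and 48 h. On the log2 scale the whole range over 18 cultures was 0.56, the smallest of the 6 genes.

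Prx lay between about the same bounds in both genotypes. In WT its normalized counts were 484, 386 and 461 at 12 h, 343, 399 and 319.9 at 24 h, and 458, 445 and 419 at 48 h. In HET they were 351, 279.8 and 375 at 12 h, 316, 410.3 and 447 at 24 h, and 417, 488 and 268 at 48 h. All 3 HET cultures at 12 h were below the 3 WT cultures, and culture 3 of HET at 48 h was the lowest of all 18.

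Mag was the lowest of the 6. In WT its normalized counts were 33, 28.2 and 36.1 at 12 h, 38.4, 9 and 24.3 at 24 h, and 1.26, 15.4 and 14.7 at 48 h. In HET they were 24.9, 23.8 and 19.4 at 12 h, 3.42, 22.8 and 27.1 at 24 h, and 10.1, 22.6 and 20.7 at 48 h. The WT cultures at 12 h were all above the WT cultures at 48 h and above the HET cultures at 12 h. Single cultures were at 1.26 in WT at 48 h and 3.42 in HET at 24 h, and the log2 range over the 18 cultures was 4.13, the widest of the 6 genes.

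Cnp reached its highest counts at 48 h in both genotypes. In WT its normalized counts were 1073, 1192 and 1421 at 12 h, 1021, 983 and 1237 at 24 h, and 1425, 1359.5 and 1402 at 48 h. In HET they were 950.5, 1429.8 and 1408 at 12 h, 985, 1102 and 1272 at 24 h, and 1637, 1711 and 1199 at 48 h. In WT all cultures at 48 h were above all cultures at 24 h, and in HET culture 3 at 48 h lay among the 24 h values.

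Egr2 was spread most widely in HET at 24 h. In WT its normalized counts were 1428, 1133 and 1032 at 12 h, 882, 917 and 1039 at 24 h, and 876, 707 and 922 at 48 h. In HET they were 811, 1054 and 1139 at 12 h, 568, 1086 and 1035 at 24 h, and 863, 845 and 928 at 48 h. WT cultures at 12 h were all above WT cultures at 48 h, and in HET culture 1 at 24 h was the lowest of the 18.

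The sequence just upstream of Mag and Egr2 is shown because these are the 2 members called over time in WT. Each is the 250 bases before the most upstream of the transcription starts that RefSeq (GRCm38.p6) lists for the gene, read 5′ to 3′ on the gene's strand, at chr7:30914923-30915172 (minus) for Mag and chr10:67535249-67535498 (plus) for Egr2. Capitals mark a match to the Sox core ACAAAG, searched on both strands.
Mag: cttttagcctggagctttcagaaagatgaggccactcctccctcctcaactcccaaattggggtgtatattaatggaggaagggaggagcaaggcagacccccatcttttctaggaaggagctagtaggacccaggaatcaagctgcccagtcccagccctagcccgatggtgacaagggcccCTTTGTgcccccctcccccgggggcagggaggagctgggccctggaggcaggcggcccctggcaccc
Egr2: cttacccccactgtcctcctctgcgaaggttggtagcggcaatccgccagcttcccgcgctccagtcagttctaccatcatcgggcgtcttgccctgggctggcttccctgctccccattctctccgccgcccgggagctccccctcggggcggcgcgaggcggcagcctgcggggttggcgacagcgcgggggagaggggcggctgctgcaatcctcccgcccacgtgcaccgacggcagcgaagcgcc
The Mag window holds 1 match, on the opposite strand, 67 bases before the start, and the Egr2 window holds 0. Over the 5 members with an entry, 3 of 14 windows held the Sox core (Cnp and Mag), beside 16.5% of 32851 windows of the same length. The Egr core GCGNGGGCG was in 0 of the 14, beside 4.7% of all windows. These are matches of letters, not measured binding.

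**Figure D2:**
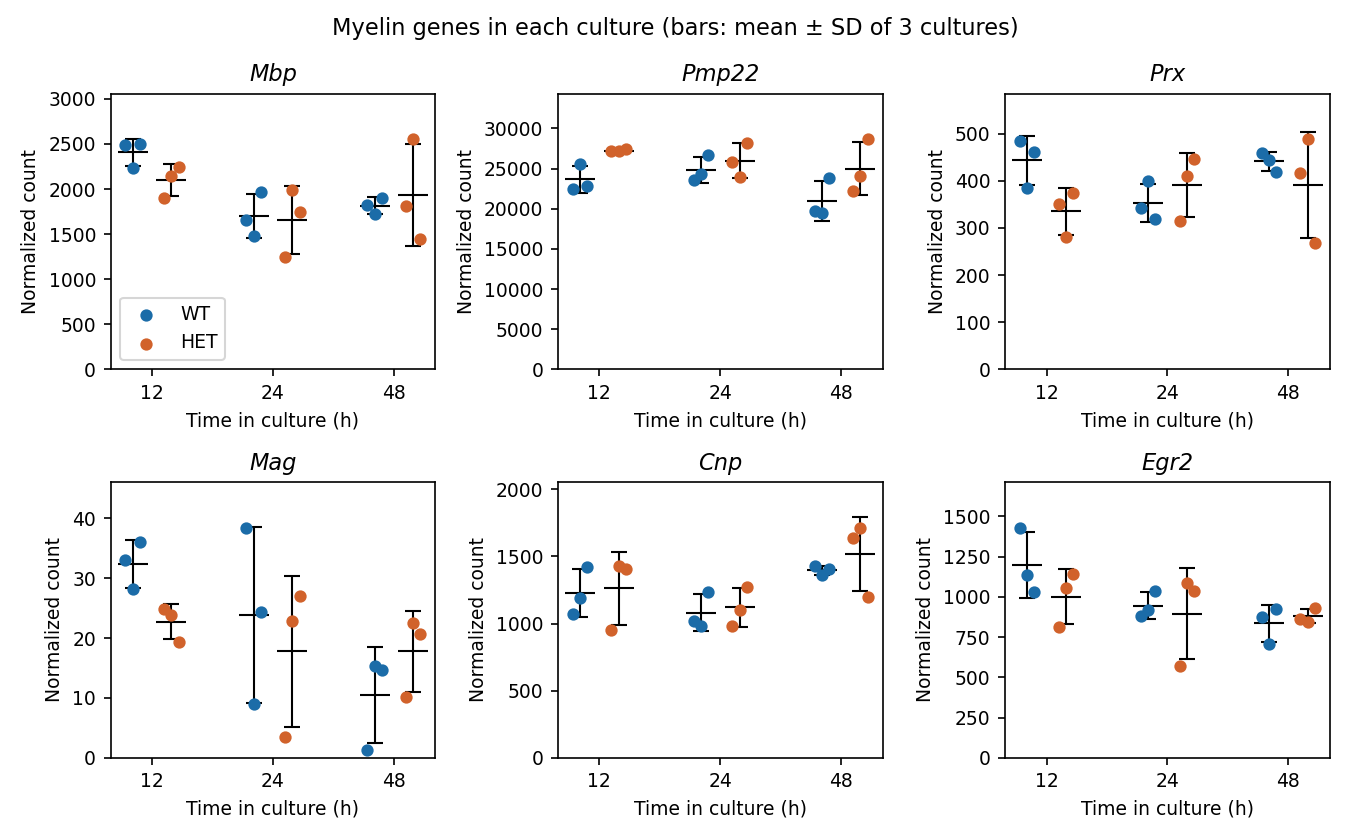
Authors' normalized count of each myelin gene in each culture (points) at 12, 24 and 48 h, with mean ± SD of 3 cultures (bars), WT in blue and HET in orange, each axis starting at 0. Mag and Egr2 fall in WT from 12 to 48 h, and the HET points at 48 h spread more widely than the WT points for Mbp and Prx.

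Between HET and WT, the question the design asks, no change was called in any of the 6 genes. At 12, 24 and 48 h, 0 of 6 passed an adjusted p of 0.05 in limma, as did 0 of 6 averaged over the times. The calls over all genes were as rare, at 0.00581% at 12 h, 0.00581% at 24 h, 0% at 48 h and 0.0174% for the average, so these comparisons called almost nothing. At an unadjusted p under 0.05, 0 members passed at 12 h, 0 at 24 h, 1 at 48 h and 1 for the average, beside 1447, 198, 3782 and 2315 of all genes. That member was Pmp22 each time. The authors' deposited table likewise called 0 of the 6 between genotypes at any time.

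Pmp22 was 1.15-fold (95% interval 0.992 to 1.34) of the WT level in HET at 12 h, 1.05-fold (0.9 to 1.22) at 24 h and 1.19-fold (1.02 to 1.38) at 48 h. Its mean normalized count was 21006 ± 2476 in WT and 24996 ± 3279 in HET at 48 h (SD, n = 3). Averaged over the times the ratio was 1.13 (1.03 to 1.23), a log2 difference of 0.17 (SE 0.059) with an adjusted p of 0.31 in limma. At 48 h the adjusted p was 0.173, and 0.0392 in limma with the replicate number as a block, beside 12.3% of all genes called so. At 48 h alone did the deviations of same-numbered WT and HET cultures correlate above 0.1 in all 3 pairs. The call did not hold when 2 directions nearly missing from the deposited values were modelled as well (adjusted p = 0.0598 in limma). For the averaged difference the adjusted p was 0.0423 with the block (3.22% of all genes called) and 0.137 with the block and those directions.

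For the other 5 members the averaged ratio of HET to WT and its 95% interval give the size of change that these data can hold. It was 0.954 (0.82 to 1.11) for Mbp, 0.893 (0.758 to 1.05) for Prx, 1.04 (0.905 to 1.2) for Cnp and 0.931 (0.785 to 1.1) for Egr2. For Mag it was 1 (0.538 to 1.87), so the data leave room for changes of that size in either direction. Of these 5 at any time, Prx at 12 h had the lowest unadjusted p in limma, at 0.0515. Its log2 fold change was -0.41 (SE 0.19, adjusted p = 0.591 in limma). The lowest adjusted p was that of Mag at 48 h, at 0.401 in limma. At 12 h the groups did not overlap in 3 of 6 members, Pmp22 higher and Prx and Mag lower in HET, against 15.1% of all genes. At 24 h they were separate in 0 of 6 (5.6% of all genes) and at 48 h in 0 of 6 (24% of all genes). For the 6 together the median log2 fold change was -0.23 (12 h), -0.0021 (24 h) and 0.09 (48 h), beside -0.02, 0.01 and -0.03 over all genes.

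**Figure D3:**
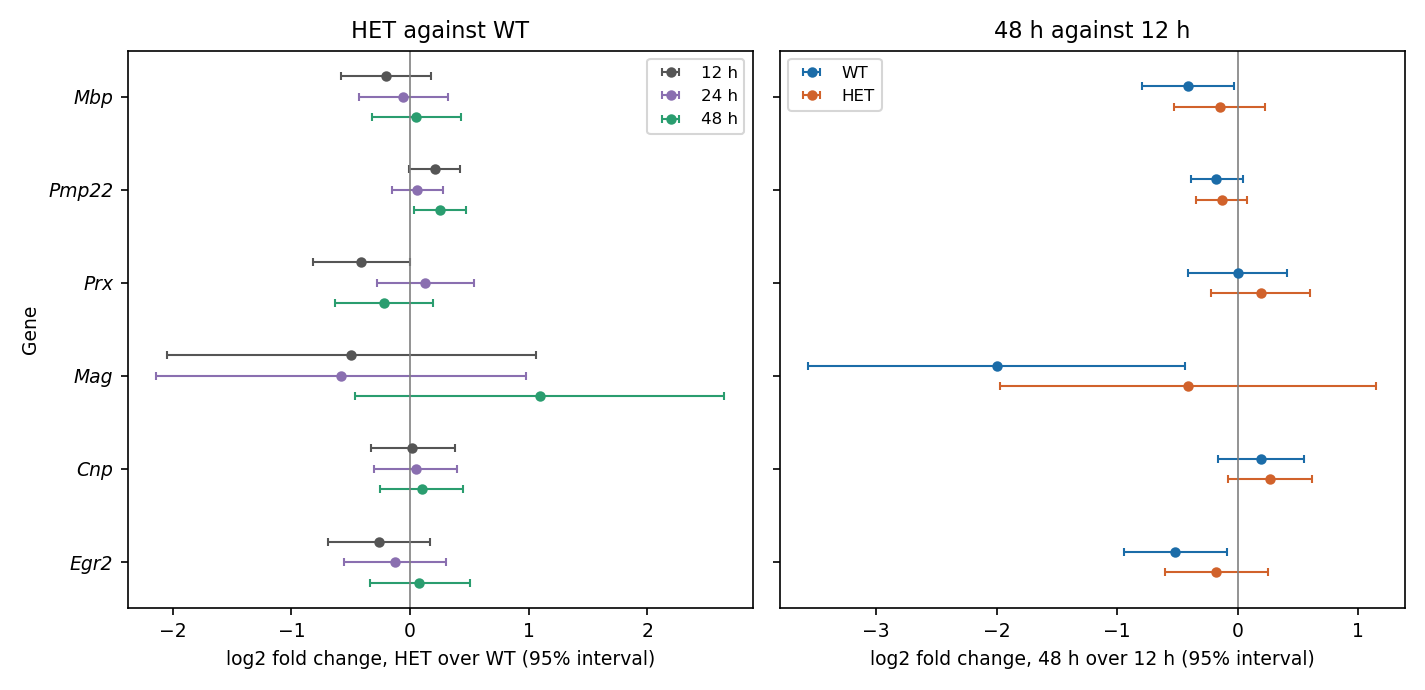
Log2 fold change of each myelin gene with its 95% interval from limma, HET over WT at 3 times (left) and 48 h over 12 h in each genotype (right); the 2 panels have different scales. The Mag intervals are the widest, from -0.46 to 2.65 for HET over WT at 48 h, and on the right those of Mbp, Mag and Egr2 in WT lie below 0.

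Mag and Egr2 fell with time in culture in WT. Between 12 and 48 h, 2 of 6 members passed in limma, both lower, and 0 were higher, beside 47.1% of all genes called (5152 higher and 2946 lower, or 4177 and 3760 on the authors' other set of columns). The share of members called is not above that of genes at large. Mag fell from 32.4 ± 3.97 to 10.5 ± 7.97 (SD, n = 3), a log2 fold change of -2.0 (SE 0.74, 95% interval -3.56 to -0.44, adjusted p = 0.0349). The scale adds 1 to each value, which shrinks changes of low genes, but this Mag value leans on 1 culture near the floor. Without replicate 1 of WT at 48 h, the culture at 1.26, it was -1.05. Egr2 fell from 1198 ± 206 to 835 ± 113, a log2 fold change of -0.52 (SE 0.20, adjusted p = 0.0449). Mbp had a log2 fold change of -0.41 (SE 0.18, adjusted p = 0.0718), Pmp22 of -0.18 (adjusted p = 0.173), Cnp of 0.19 (adjusted p = 0.36) and Prx of -0.0016 (adjusted p = 0.996). In the authors' deposited table the same 2 members were called in this comparison, Mag at a log2 fold change of -1.62 and Egr2 at -0.52, and none in the other comparisons it holds. The 12 and 48 h WT groups did not overlap in 3 of 6 members, Mbp, Mag and Egr2, all lower, against 55.3% of all genes.

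Both calls were narrow. Mag lost its call without replicate 1 of WT at 48 h, the culture at 1.26, where the log2 fold change was -1.05 (adjusted p = 0.219), and without replicate 1, 2 or 5 of WT at 12 h (adjusted p from 0.0607 to 0.0833). Egr2 lost its call without replicate 1 or 2 of WT at 12 h, 24 h or 48 h, and without replicate 2 of HET at 12 h or replicate 1 or 2 of HET at 48 h (adjusted p from 0.0508 to 0.176). The Egr2 call was also lost with the replicate block and the nearly missing directions modelled (log2 fold change -0.45, adjusted p = 0.121 in limma). Mbp passed on the authors' other columns (log2 fold change -0.51, adjusted p = 0.0197) and after quantile normalization (-0.5, 0.0293). It also passed with the block (-0.37, 0.0188) and in limma on the compared groups alone (-0.41, 0.00713). Without replicate 1 of HET at 24 h or replicate 2 or 3 of HET at 48 h it passed too (adjusted p from 0.0352 to 0.0426). Pmp22 passed on the other columns (log2 fold change -0.28, adjusted p = 0.0365) and with the block (-0.26, 0.0472). It passed as well without replicate 3 of WT at 48 h (log2 fold change -0.27, adjusted p = 0.0496).

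The remaining steps of the time course called 0 of 6 members. They share cultures with one another and with the genotype comparisons. In WT from 12 to 24 h (3.62% of all genes called) the lowest p was that of Mbp, with a log2 fold change of -0.51 (SE 0.18, adjusted p = 0.111), and its groups did not overlap, as in 26.9% of all genes. In WT from 24 to 48 h (27.7% called) Cnp had a log2 fold change of 0.38 (adjusted p = 0.101) and Pmp22 of -0.25 (adjusted p = 0.0841), with 2 members, Prx and Cnp, separate and higher against 46% of all genes. Pmp22 passed there on the authors' other columns (log2 fold change -0.32, adjusted p = 0.0344), without replicate 3 of WT at 48 h (-0.34, adjusted p = 0.0291) and without replicate 3 of HET at 48 h (-0.25, adjusted p = 0.0494). In HET, 0 of 6 were called from 12 to 24 h (18.9% of all genes), from 12 to 48 h (14.2%) or from 24 to 48 h (2.49%), and 0 of 6 were separate between any 2 times, against 38.4%, 29.7% and 18.3% of all genes. Cnp had the lowest p there, with a log2 fold change of 0.43 from 24 to 48 h (SE 0.17, adjusted p = 0.168), and without replicate 3 of HET at 48 h this was 0.59 (adjusted p = 0.0262). At an unadjusted p under 0.05 the members passing were 1, 3 and 2 in WT and 0, 0 and 1 in HET, in the order 12 to 24, 12 to 48 and 24 to 48 h, beside 3688, 9294, 6961, 5679, 5499 and 3280 of all genes.

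The fall of Mag and Egr2 in WT was not shown to differ from HET. In HET the 48 to 12 h log2 fold change was -0.41 (SE 0.74) for Mag and -0.18 (SE 0.20) for Egr2. The difference between the genotypes in that change, HET minus WT, was 1.59 for Mag (95% interval -0.62 to 3.8, adjusted p = 0.617) and 0.34 for Egr2 (-0.26 to 0.94, adjusted p = 0.683). It was above 0 for all 6 members, from 0.04 for Pmp22 upward, with 0 of 6 called and 0% of all genes called. At an unadjusted p under 0.05 it called 0 members and 1534 of all genes. The sign for Cnp and Pmp22 changes with the processing, to -0.04 in each when the block and the nearly missing directions are modelled.

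Other genes of the sheath did not follow one direction. Of 10 other myelin protein genes, 5 were called in WT from 12 to 48 h, 2 higher and 3 lower, beside 47.1% of all genes. Pmp2, a fatty acid-binding protein of peripheral myelin, rose most, from normalized counts of 29.9 to 49.1 in the 12 h cultures to 468 to 1290.5 at 48 h (log2 fold change 4.52, SE 0.64, adjusted p = 7.41e-05). Gldn, which Schwann cells secrete at the node of Ranvier, rose by 1.36 on the log2 scale (SE 0.35, adjusted p = 0.00422). Pllp, a further tetraspan protein of myelin, fell from normalized counts of 72.2 to 146.7 at 12 h to 30.5 to 54.9 at 48 h (log2 fold change -1.36, SE 0.35, adjusted p = 0.00476). Gjb1, the gap junction protein connexin 32, had a log2 fold change of -1.05 and Cd9, a tetraspanin of many cell types, of -0.57. In HET, 2 of 10 were called, beside 14.2% of all genes, Pmp2 at 2.41 and Pllp at -1.32. Both counts are close to the share of genes at large. The 10 genes had a median log2 fold change of -0.11 in WT and 0.0035 in HET, beside 0.11 and 0.1 over all genes.

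Of 5 enzymes of myelin lipids, 2 were called in WT, both higher, beside the same 47.1% of all genes (5152 of 8098 calls higher). Gal3st1, the sulfotransferase that makes sulfatide, had a log2 fold change of 1.47 (SE 0.31, adjusted p = 0.00129) in WT and 1.16 in HET, where it was the 1 enzyme called. Cers2, a ceramide synthase for very long chains, had 0.28 in WT (adjusted p = 0.0334). The median of the 5 was 0.28 in WT and 0.16 in HET.

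Of 14 measured genes that promote Schwann cell myelination, 6 were called in WT, 2 higher and 4 lower, again near the 47.1% of all genes. Erbb3, the Schwann cell receptor for neuregulin, rose by 1.47 (SE 0.38), and Nab2, a cofactor that binds Egr proteins, by 0.94 (SE 0.19) on the log2 scale. Tead1, the DNA-binding partner of Yap1, had a log2 fold change of -1.10 (SE 0.35), and its coactivator Wwtr1 of -0.50 (SE 0.17). Adam22, a receptor for Lgi proteins, had -0.69 (SE 0.11) and Zeb2, a transcription factor needed for Schwann cells to mature, -0.33 (SE 0.09). Sox10, the lineage factor that works with Egr2, was at 0.18 (adjusted p = 0.681). In HET 1 of 14 was called, Nab2 at 0.99, and the median of the 14 was -0.19 in WT and -0.01 in HET. Tead1 rested in part on replicate 5 of WT at 12 h, and without it the log2 fold change was -0.62 (adjusted p = 0.117).

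Of 13 injury and repair genes of Schwann cells, 8 were called in WT, 4 higher and 4 lower, and 3 of 13 in HET, beside 47.1% and 14.2% of all genes. Egr1, the immediate early relative of Egr2, had a log2 fold change of -2.22 (SE 0.34), Ngfr, the low-affinity neurotrophin receptor, of -1.14 (SE 0.15) and Notch1 of -0.85 (SE 0.18). Olig1 rose by 1.93 (SE 0.50), from normalized counts of 4.2 to 6.75 at 12 h to 14.7 to 35.7 at 48 h, Btc, which encodes the growth factor betacellulin, by 1.87 (SE 0.54) and Id4 by 1.72 (SE 0.30). In HET the calls were Id4 at 1.08, Ngfr at -0.70 and Jun at -0.44. Jun was called in WT as well, at -0.62 (SE 0.10, adjusted p = 0.000215). Jun and Ngfr are also made by injured sensory neurons, which these cultures hold. The median of the 13 was -0.14 in WT and 0.1 in HET. The comparisons of WT and of HET over time share no cultures.

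Between the genotypes, 0 of the 42 genes of these 4 lists were called by limma without a block at any time, on average or in the difference of the time changes. At an unadjusted p under 0.05, 4 passed at 12 h, 0 at 24 h, 11 at 48 h, 6 on average and 7 in that difference (9.52%, 0%, 26.2%, 14.3% and 16.7%), beside 8.41%, 1.15%, 22%, 13.5% and 8.92% of all genes. With the replicate number as a block, 10 of the 42 were called at 48 h, 2 higher and 8 lower in HET, beside 12.3% of all genes. Pmp2 was at normalized counts of 468 to 1290.5 in WT and 52.6 to 473.5 in HET at 48 h, with a log2 fold change of -2.0 (SE 0.34, adjusted p = 0.0042 with the block and 0.093 without it, in limma). Btc was at -1.24 (adjusted p = 0.00127 with the block and 0.195 without) and Gldn at -0.96 (0.00176 and 0.124). The 2 higher were Egr1 at 0.82 (0.0368 and 0.181) and Cd9 at 0.38 (0.0245 and 0.129). The others, all lower, were Cadm4, Ugt8a, Sox10, Erbb2 and Gdnf. With the nearly missing directions also modelled 14 of the 42 were called, 2 higher and 12 lower, beside 11.4% of all genes. On average over the times the block called 8 of the 42, all lower (3.22% of all genes), and 3 with those directions (1.47%).

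The HET counts of these lists depended on single cultures. Without replicate 2 of HET at 12 h, or replicate 1 or 2 of HET at 48 h, 0 genes of the 4 lists were called in HET from 12 to 48 h. Fitting the HET cultures of those times alone also gave 0, but that fit called 0 of all 17198 genes. That 0 is therefore not particular to the lists. The share of all genes called with a culture left out is not given here. Pmp2, Gal3st1 and Id4 lost their calls without replicate 1 of HET at 12 h (adjusted p of 0.0601, 0.0634 and 0.0701), and Gal3st1 without replicate 5 (adjusted p = 0.0536). Without replicate 3 of HET at 48 h the counts were 5 of 10, 2 of 5, 5 of 14 and 5 of 13. In WT, leaving out 1 culture at a time gave 4 to 6, 1 to 2, 4 to 7 and 7 to 9, and 5 calls were lost without single cultures. The Gjb1 call was lost without replicate 2 of WT at either time. The Cers2 call was lost without replicate 1, 2 or 5 of WT at 12 h or replicate 2 of WT at 48 h. For Tead1 it was lost without replicate 5 of WT at 12 h or replicate 2 or 3 of WT at 48 h, for Wwtr1 without replicate 1 or 2 of WT at 12 h or replicate 2 or 3 of WT at 48 h, and for Btc without replicate 2 of WT at 48 h.

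**Figure D4:**
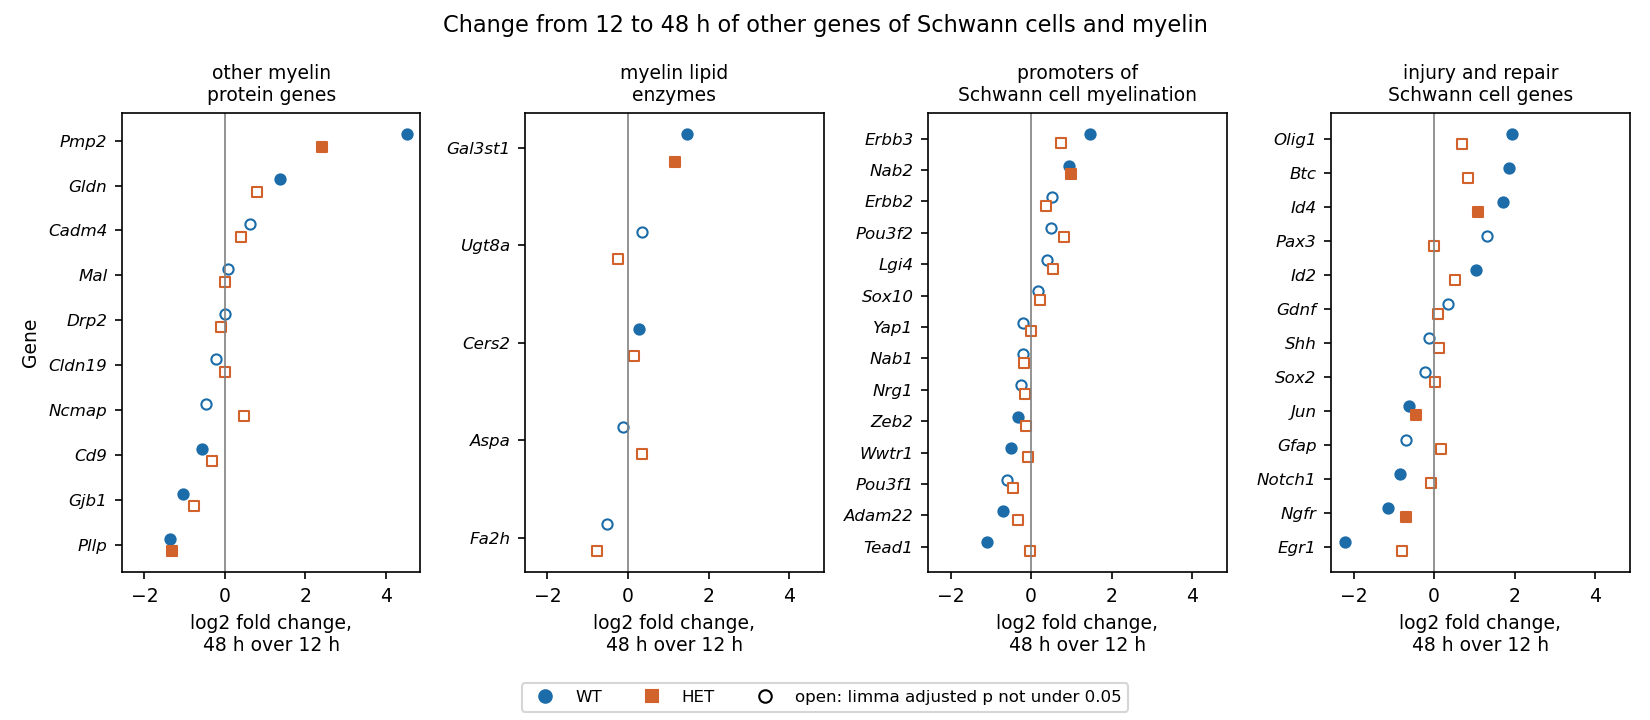
Log2 fold change from 12 to 48 h of the genes of 4 lists related to Schwann cells and myelin, WT as circles and HET as squares, filled where the limma adjusted p was under 0.05. Pmp2 lies furthest to the right, at 4.52 in WT and 2.41 in HET, and Egr1 lies furthest to the left in WT, at -2.22.

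Markers of other cells moved over the same interval in WT, in which 47.1% of all genes were called. Of 6 satellite glia markers, 3 fell and 1 rose, and their summed FPKM went from 438.1 to 601.8 at 12 h to 220.9 to 239.9 at 48 h, with Apoe at a log2 fold change of -2.69. Of 6 fibroblast markers 4 rose and 0 fell (sums of 41.1 to 83.5, then 98.2 to 145), and of 5 markers of dividing cells 5 rose (2.56 to 3.37, then 10.6 to 20.7). Of 5 endothelial markers 3 fell (75.9 to 107.5, then 52.2 to 62.1), and of 5 measured macrophage markers 1 rose and 1 fell (14.4 to 21.6, then 36.5 to 74.6). Of 8 sensory neuron markers 2 rose and 3 fell (4594.1 to 5451.9, then 5097.6 to 5581.7), of 6 Schwann lineage markers 2 rose and 1 fell (240.7 to 374.3, then 247.9 to 302.1), and of 6 oligodendrocyte markers 2 rose and 1 fell (0.435 to 0.905, then 0.515 to 1.12). Of the Schwann lineage markers Erbb3 and Gfra3 rose and S100b fell. S100b and Gfra3 held most of that sum, at mean FPKM of 252.1 and 41.7 of 321.1 in WT at 12 h. Their means were 142.9 and 104.2 of 276.2 in WT at 48 h, so the sum mostly follows these genes. Whether other cells of the cultures also make them was not tested. The normalized counts hold no 0 for any gene, so the lack of a 0 among the listed markers does not show that they were detected. In bulk RNA, fewer cells of a type and less RNA per cell cannot be told apart, and the part of these shifts in the fall of Mag and Egr2 was not tested. Between genotypes 0 of the 47 measured markers were called by limma in the average over the times, beside 0.0174% of all genes. At an unadjusted p under 0.05, 8 passed (17.0%), beside 13.5% of all genes. The block called 2 of them on average (4.26%), Sox10 and Pdgfrb, both lower in HET, beside 3.22% of all genes. With the nearly missing directions modelled it called 0, beside 1.47%. These shares are near those of genes at large. At 48 h it called 10 of the 47, all lower in HET, beside 12.3% of all genes, and their part in the 48 h differences with the block was not tested.

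The 6 genes did not vary as a block over the 18 cultures. Of their 15 pairs, 10 had a positive Pearson correlation on the log2 scale, with a median of 0.18, and 0.25 after group means were removed. Mbp and Egr2 were the closest pair at 0.67, and Pmp22 and Prx the furthest apart at -0.63. These correlations describe cultures that share genotype, time and normalization. Over 16129 genes with a mean of at least 10, those most like each member were Dmd (0.94), Nedd4 (0.92) and Gatm (0.91) for Mbp, Heca (0.94), Tmem57 (0.92) and Rnf125 (0.91) for Pmp22, and Plxnd1 (0.91), Itga6 (0.89) and Chd2 (0.89) for Prx. For Mag they were 4931409K22Rik (0.91), Xpnpep2 (0.87) and Ptgds (0.86), for Cnp Dapk2, Rpa1 and Camk1g (each 0.93), and for Egr2 Fam84b (0.9), Dusp6 (0.89) and Abcg2 (0.87). The 6 members themselves were left out of this search. None of the 18 nearest genes was on the myelin or Schwann cell lists. Those lists hold few of the 16129 genes, so this outcome was likely in advance and says little.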

How the data were processed

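Total RNA of 18 cultures was sequenced, 3 per genotype and time. Per the submitters' processing notes, CASAVA 1.8.2, edgeR and mm10 were used, and the aligner and counter are not given in the sources used here. The deposited table gives, per the file headers, the authors' normalized counts (a signal of unstated scale that holds no 0 and no whole number), a second set of adjusted columns of signal, FPKM, log2 ratios, and p-values with adjusted p-values. FPKM served to compare levels between genes.

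The values are not counts, so no count test was run. With R 4.3.3 and limma 3.58.1, log2(normalized count + 1) of all 17198 genes (mean of at least 1, which removed 0) was fitted to all 18 cultures with 1 coefficient per group and eBayes with a trend (degrees of freedom: 12 residual, 4.97 prior). Benjamini-Hochberg adjustment was made within each of 11 comparisons, with a threshold of 0.05. Log values of the second set of columns span 15 of 17 possible dimensions. Those of the normalized counts span 17, but their last 2 singular values are 0.0187 and 0.000469 of the largest, against 0.196 for the one before, so the 12 residual degrees of freedom may be overcounted. Labels do not say whether repeats came from separate animals, so p-values measure the spread between these cultures.

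The replicate numbers come from the titles. Deviations of same-numbered WT and HET cultures from their group means correlated above 0.1 in every pair at 48 h (r from 0.209 to 0.461, 3 pairs), and not in every pair at 12 h (0.0318 to 0.188) or 24 h (-0.207 to 0.258). The block is therefore given beside the 48 h genotype results.

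The 6 genes and all lists were chosen with earlier results of these data known. Named genes were Dynlrb1, the 6 genes, each list gene past the threshold in the comparison described (above 6, the 3 largest rises and falls), and the 3 genes most correlated with each of the 6. Some genes of the lists are not reported here and were left out of the list counts. Sox10 was named after its values were seen. Promoter windows were matched by symbol in RefSeq for 5 of the 6 genes. Pseudocount, filter, scaling, block and left-out cultures were varied.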

Additional observations from a re-analysis of the deposited data

How the results depend on the processing

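Between genotypes, 0 of 6 members were called at any time or on average under every pseudocount, filter, scaling and left-out culture tried; with replicate number as a block, 1 was called at 48 h and 1 on average, Pmp22 each time, and 0 and 0 when the 2 nearly missing directions were modelled too. In WT from 12 to 48 h, where 2 were called, the count was 4 on the authors' other columns (46.2% of all genes) and 4 with the block (47.4%). Each time these were Mbp, Pmp22, Mag and Egr2. When 1 culture was left out the count was 0 to 3. It was 0 without replicate 1 or 2 of WT at 12 h or replicate 1 of WT at 48 h. In WT from 12 to 48 h with the block and those directions, Egr2 lost its call (log2 fold change -0.45, adjusted p = 0.121 in limma). In that fit, which called 38.8% of all genes, Mbp was called lower (-0.4, adjusted p = 0.0333) and Cnp was called higher (0.38, adjusted p = 0.0357). The other time comparisons called 0. With the block they called 1 in WT from 12 to 24 h (Mbp), beside 9.43% of all genes. They called 2 in WT from 24 to 48 h (Pmp22 and Cnp), beside 31.2%. In HET they called 1 from 12 to 24 h (Mbp, beside 26.2%), 2 from 12 to 48 h (Prx and Cnp, beside 30.8%) and 2 from 24 to 48 h (Mbp and Cnp, beside 16.8%). With the block and those directions, the count was 1 in WT from 24 to 48 h (Cnp, beside 7.53% of all genes). In HET it was 1 from 12 to 24 h (Mbp, beside 34.3%), 1 from 12 to 48 h (Prx, beside 29.1%) and 2 from 24 to 48 h (Mbp and Cnp, beside 12%). The other columns called 1 in WT from 24 to 48 h (Pmp22, beside 27.4%). Fits to the compared groups alone called 1 there (Cnp, beside 29.5%) and 1 in WT from 12 to 24 h (Mbp, beside 4.88%). Leaving out 1 culture gave 0 to 1 in WT from 24 to 48 h and 0 to 1 in HET from 24 to 48 h. Outside 48 h between genotypes the numbers were not shown to pair cultures. Replicate 3 was present only at 48 h, so a block within genotype sets it aside in the time comparisons. Blocked changes to 48 h then rest on replicates 1 and 2 at 48 h. Culture 3 of HET at 48 h, the furthest from its replicates, is among those set aside. With the block alone 6 residual degrees of freedom remain, and fewer with those directions. The cause of the changes was not tested. The list counts from 12 to 48 h moved too. In HET the block called 5 of 10 other myelin genes, 2 of 5 enzymes, 7 of 14 promoting genes and 6 of 13 injury genes (30.8% of all genes), and with those directions 5, 2, 8 and 6 (29.1%). In WT, 9 of 14 promoting genes were called with the block (5 higher, 4 lower), beside 47.4% of all genes (5009 higher, 3139 lower). On the other columns 8 were called (2 higher, 6 lower), beside 46.2% of all genes (4177 higher, 3760 lower).

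Signs changed for values near 0 or for Mag. With the block, Mbp in HET from 12 to 48 h was 0.09 and Prx in WT from 12 to 48 h 0.01. With the block and those directions, Mbp in HET was 0.16, Mag in HET 0.43, Pmp22 between genotypes at 24 h -0.04, and the genotype difference of the time change -0.04 for Cnp and -0.04 for Pmp22. Leaving out 1 culture at a time, these ranges crossed 0: Mbp in HET from 12 to 48 h (-0.37 to 0.04), Prx between genotypes at 48 h (-0.40 to 0.03) and in WT from 12 to 48 h (-0.10 to 0.06), Mag averaged between genotypes (-0.31 to 0.29), Sox10 in WT from 12 to 48 h (-0.08 to 0.44), and the genotype difference of the time change for Cnp (-0.12 to 0.24) and Pmp22 (-0.06 to 0.14). The averaged comparison uses all groups, so it had no separate fit to the compared groups alone. DESeq2 was planned for counts and not run, since the values are not counts. Depth is unknown, so only the spread between cultures limits what could be seen, most of all for Mag.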
